A study of Rattus norvegicus with 18 samples.

Results

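Of the 32883 genes counted in visceral white adipose tissue (vWAT), 52 were selected as higher in spontaneously hypertensive rats (SHRs) than in Wistar-Kyoto (WKY) rats. The strains did not overlap in these genes. The median over all SHRs, with or without trimethylamine oxide (TMAO), was at least 2 times the WKY median. The 52 genes, called members here, were chosen by their measured values. For each gene the CPM, the count divided by the total of the library and multiplied by 1000000, had to be higher in the lowest of the 12 SHRs than in the highest of the 6 WKY rats. The median of the 12 SHRs together also had to be at least 2 times the WKY median, and their mean CPM at least 1. For the SHRs on water or on TMAO alone, the median could be less than 2 times that of WKY. Genes of chromosomes MT and 20 and 5 further genes were left out by the rule. The separation of the SHRs from WKY is therefore how the genes were found, and its size is given below as a description without a test. The rule did not compare the SHRs on TMAO with the SHRs on water, and that difference was tested. It did require both to lie above WKY, so a gene at WKY level in either could not be a member.

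The 18 rats formed 3 groups of 6. WKY rats served as the normotensive controls, on a standard diet and water per the study's methods. The SHR-Water group were SHRs on tap water. The SHR-TMAO group were SHRs that drank water with 1 g/L TMAO. The SHRs of both groups were male and 7 to 8 weeks old at the start, and treatment lasted 22 weeks, as the methods state. The age of the WKY rats is not given in the sources used here. Rats shared cages, and which rats did is also not given. SHRs and WKY are separate inbred strains, so that strain, blood pressure and any difference in rearing cannot be told apart in a comparison with WKY.

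vWAT is the fat around the organs of the abdomen. It stores energy as triglyceride in adipocytes, releases fatty acids and hormones such as leptin, and also holds progenitors, fibroblasts, vessels and immune cells. The SHR was bred by selection for high blood pressure from the stock that also gave WKY, and it is widely used as a model of hypertension with disturbed lipid and glucose handling. TMAO is formed in the liver from trimethylamine, which gut bacteria release from choline and carnitine in the diet.

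The table gives Ensembl identifiers without symbols, and 0 of them matched the reference table at hand. The members are therefore called by their chromosome and start on Rnor_6.0, the identifiers are given for 2 of them, and what their products do is not described. Marker genes of adipocytes and of the other cells of fat were not analysed here for the same reason. In whole tissue, fewer cells of a type and less RNA per cell cannot be told apart.

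Library totals were 10774133 to 18841046 counts in WKY. The SHR-Water libraries held 14939661 to 17251247 counts and the SHR-TMAO libraries 14879416 to 18874161. The mitochondrial share of the counts ranged from 7.08% to 20.6% for WKY, from 15.5% to 28.5% for SHR-Water and from 11.1% to 20.8% for SHR-TMAO. No pair of replicates was within sampling noise of each other (smallest chi-square per degree of freedom 13.2, for WKY replicates 1 and 3).

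Together the 52 members took 1281 ± 197 CPM in WKY. They took 4257 ± 690 CPM in SHR-Water and 4620 ± 421 CPM in SHR-TMAO (SD, n = 6 each). The WKY rats lay between 1016 and 1488 CPM and the SHRs between 3375 and 5154 CPM. The lowest SHR was SHR-Water replicate 1, in which mitochondrial genes also took the largest share of counts. The SHR-Water and SHR-TMAO ranges of the sum overlapped. All 52 members had counts in each SHR, and 48 had counts in every WKY rat.

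**Figure D1:**
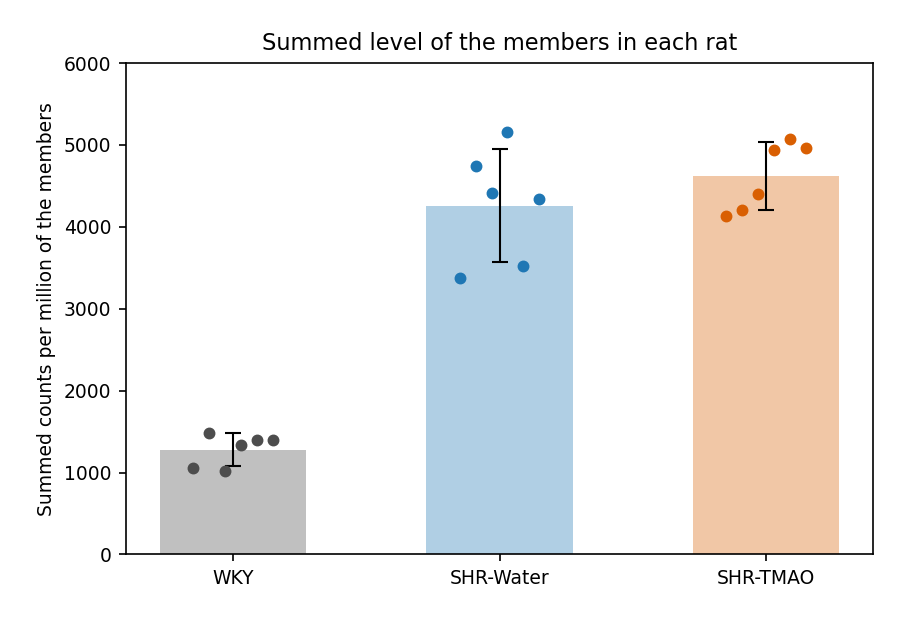
Summed CPM of the 52 members (vertical axis, linear from 0) in WKY, SHR-Water and SHR-TMAO. Bars are means, error bars the SD over 6 rats, and points single rats. The WKY points lie between 1016 and 1488 CPM and the SHR points between 3375 and 5154 CPM, a distance that the rule itself set.

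Of 11965 genes that met the rule's limits on level and chromosome, 69 (0.577%) had every SHR above every WKY rat, and 135 (1.128%) had every SHR below every WKY rat. The members were 52 of the 69. The ratio of the SHR median to the WKY median was 2 to 4 in 24 members, 4 to 10 in 19 and at least 10 in 9. The last class counts 3 members whose WKY median was 0. Over the other 49 members the median ratio was 4.002. Just inside the limit of 2 were the genes at chr2:149533151-149564113 (ratio 2.02), chr12:9985928-9990284 (2.04) and chr7:123043503-123058604 (2.19). Just outside were those at chr1:94485832-94494980 (1.97), chr3:111597102-111616142 (1.92) and chr4:157977162-158010166 (1.91).

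The distance between the lowest SHR and the highest WKY rat was small for many members. Among the 50 members with counts in WKY, the lowest SHR was a median 1.31 times the highest WKY rat. It was less than 1.1 times as high in 9 members and at least 2 times as high in 11. The rat at the border of the SHRs was SHR-Water replicate 1 in 17 of 52 members, and at the border of WKY it was replicate 6 in 12 members and replicate 2 in 11. Without WKY replicate 2 the rule gave 71 genes, of which 49 were among the 52.

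The most abundant members were 13 genes with a mean of at least 50 CPM in the SHRs. Their ratios lay between 2.19 and 6.50, below the largest ratios of the list. Per kilobase of exon, the gene at chromosome 5, 167.29 Mb had the highest level of all 52, at 373 CPM per kb in the SHRs. The genes at chromosome 2, 143.66 Mb (192 CPM per kb), chromosome X, 28.44 Mb (146) and chromosome 4, at ENSRNOG00000040108 (112) followed.

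ENSRNOG00000040108 (chr4:14001761-14249749, + strand, 9993 exon bases) took the most counts. Its lowest, median and highest values were 166, 180 and 436 CPM in WKY, 777, 1099 and 1325 CPM in SHR-Water, and 789, 1188 and 1556 CPM in SHR-TMAO. The 2 SHR groups overlapped almost fully. WKY replicate 2 was the highest control rat. The log2 fold change from WKY was 2.13 ± 0.22 (SE) in SHR-Water and 2.38 ± 0.25 in SHR-TMAO. These comparisons share the WKY rats. Exons of this gene overlap exons of 2 other genes on the same strand, so reads in the shared stretches could not be assigned.

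The gene at chr5:167288223-167299609 (+ strand) measured 190, 218 and 360 CPM in WKY (lowest, median and highest). It measured 529, 647 and 801 CPM in SHR-Water and 594, 735 and 969 CPM in SHR-TMAO. The log2 fold changes from WKY were 1.36 ± 0.21 and 1.63 ± 0.20.

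At chr2:143656793-143688087 (+ strand) the WKY values were 184, 264 and 423 CPM. SHR-Water rats had 423, 514 and 746 CPM and SHR-TMAO rats 451, 707 and 913 CPM. Here the SHRs and WKY only just separated: SHR-Water replicate 5 was 1.001 times WKY replicate 6.

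The gene at chrX:28435507-28472880 (+ strand) was further from WKY. It measured 51.3, 80.6 and 134 CPM in WKY, 324, 525 and 672 CPM in SHR-Water, and 451, 515 and 564 CPM in SHR-TMAO. The lowest SHR was 2.41 times the highest WKY rat, and the log2 fold changes were 2.55 ± 0.22 and 2.62 ± 0.19. Exons of another gene overlap it on the same strand.

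The gene at chr7:107734323-107775714 (- strand) was 73.5 CPM in the median WKY rat, 303 in the median SHR-Water rat and 282 in the median SHR-TMAO rat. SHR-Water replicate 1, at 120 CPM, was close to the highest WKY rat, at 112 CPM. At chr1:101687855-101692846 (+ strand) the group medians, in the order WKY, SHR-Water, SHR-TMAO, were 29.5, 148 and 129 CPM, and WKY reached 84.4 CPM in replicate 6. At chr14:15253125-15258207 (- strand) they were 25.7, 73.8 and 125 CPM. In that gene SHR-Water was spread widely, from 37.6 to 155 CPM, and its lowest rat, replicate 1, was close to the highest WKY rat, at 36.9 CPM.

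The gene at chr6:56846789-57193961 (+ strand) was 16.4 CPM in the median WKY rat and 98 and 95.7 CPM in the median SHR-Water and SHR-TMAO rats. At chr2:30175018-30246010 (- strand) the medians were 40.1, 92.7 and 99.2 CPM, and at chr7:123043503-123058604 (+ strand) 38.6, 86.6 and 84.8 CPM. The gene on chromosome 2 kept to a narrow range, with SHR-Water from 78.5 to 97.5 CPM and SHR-TMAO from 85.3 to 106 CPM.

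**Figure D2:**
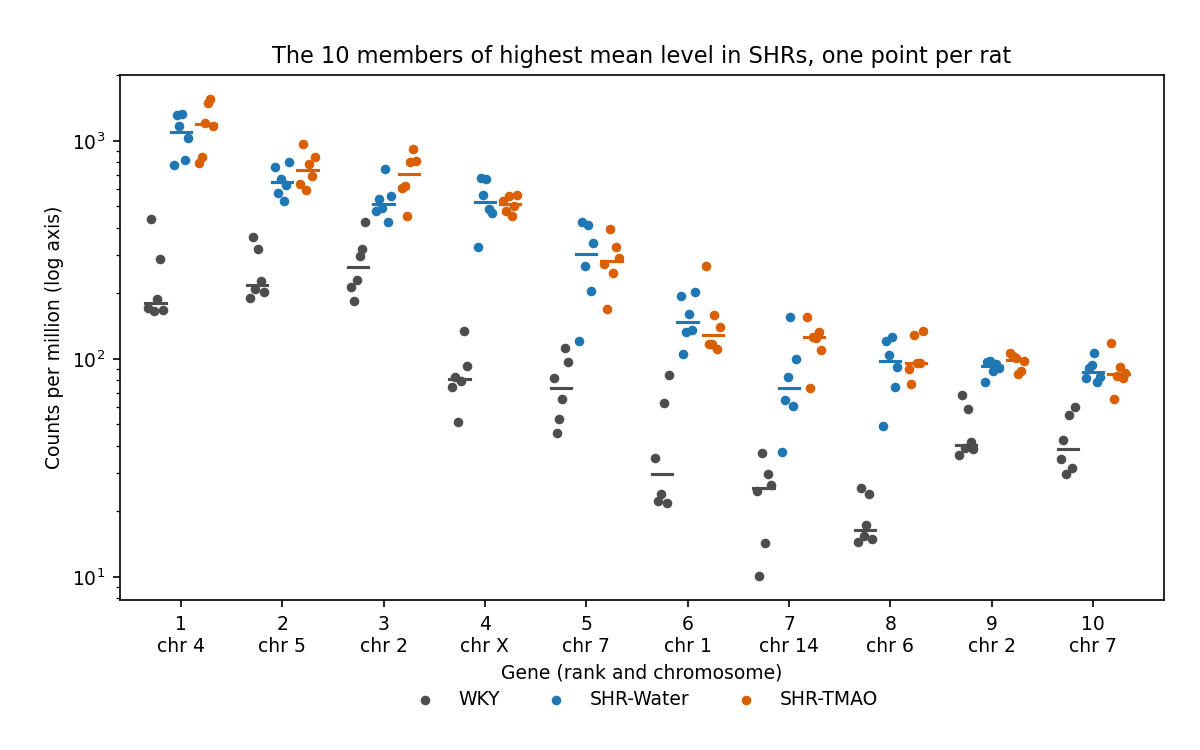
CPM (vertical log axis) of the 10 members of highest mean level in the SHRs, ordered by that mean and marked by chromosome. Points are rats and short lines group medians. In the first gene WKY reaches 436 CPM and the SHRs begin at 777 CPM, whereas in the third, on chromosome 2, WKY and SHR-Water meet at 423 CPM.

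A second set of members was at or near 0 in WKY. In 16 members the WKY median was under 1 CPM. Of these, 3 neighbouring genes within chr11:33781870-33893433 had a WKY median of 0, so that no ratio of medians could be computed for them.

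ENSRNOG00000001699 (chr11:33781870-33801999, - strand) had 3 counts in WKY replicate 1 (0.274 CPM) and 0 in the other 5 WKY rats. It had 4.65, 7.80 and 9.22 CPM in SHR-Water (lowest, median and highest) and 5.24, 8.31 and 12 CPM in SHR-TMAO. Over the summed counts, 709 in SHR-Water against 3 in WKY gave a ratio of 220 with a 95% exact counting interval from 75.1 to 1072. In SHR-TMAO 885 counts gave a ratio of 262, with an interval from 89.2 to 1271. These intervals cover counting error only, not the spread between rats. The gene was chosen by this contrast, so the intervals describe the counts and are no test of the difference.

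Its neighbour at chr11:33812662-33865933 (+ strand) had 0 counts in all 6 WKY rats. SHR-Water measured 0.428, 2.03 and 3.11 CPM and SHR-TMAO 2.98, 4.31 and 7.92 CPM. Against the limit that 3 counts over the WKY group allow, SHR-Water was at least 57.6-fold higher and SHR-TMAO at least 146-fold higher. This limit covers counting in WKY only, not the spread between rats. Genes silent in WKY were chosen by this contrast, so such bounds are no test. The exons of 6 small genes on the same strand overlap this gene, and the highest of these 6 had 23 counts over SHR-Water and 30 over SHR-TMAO.

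The third gene, at chr11:33887142-33893433 (+ strand), also had 0 counts in all 6 WKY rats. It reached 0.550, 0.930 and 2.16 CPM in SHR-Water and 0.518, 1.72 and 2.18 CPM in SHR-TMAO, at least 31.8-fold and 47.0-fold higher than the same limit over the WKY group.

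The gene at chr6:108745895-108756130 (+ strand) had 0.0928, 0.253 and 0.856 CPM in WKY. SHR-Water had 3.36, 16.8 and 19.4 CPM and SHR-TMAO 6.18, 16.7 and 24.8 CPM, and the ratio of medians was 66.5. An exon on the other strand overlaps it. At chr8:54925607-54937177 (+ strand) WKY held 6 counts in all, from 0 to 0.122 CPM. SHR-Water lay between 0.697 and 10.7 CPM with a median of 5.06, and SHR-TMAO between 0.742 and 64.0 CPM with a median of 3.67. The ratio of medians was 60.2. This was the most uneven member among the SHRs, and the value of 64.0 CPM came from SHR-TMAO replicate 3 alone.

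The gene at chr10:82232107-82252963 (- strand) was even among the SHRs by contrast. It had 0.106, 0.184 and 0.511 CPM in WKY, 5.10, 6.63 and 9.78 CPM in SHR-Water, and 6.28, 6.55 and 9.01 CPM in SHR-TMAO. The lowest SHR was 9.99 times the highest WKY rat. At chr15:62520953-62532175 (+ strand) WKY had a median of 0.424 CPM, SHR-Water of 4.84 CPM and SHR-TMAO of 6.75 CPM.

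At chr4:17272511-17594598 (- strand) the medians in the same order were 1.07, 13.5 and 13.3 CPM, and the SHRs spread from 5.16 to 38.6 CPM. Another gene overlaps its exons on the same strand. At chr13:83972212-83984675 (+ strand) they were 4.16, 44.7 and 44.0 CPM, and the lowest SHR, at 30.0 CPM, was 3.69 times the highest WKY rat. At chr1:252976644-253000760 (- strand) they were 1.76, 19.98 and 11.8 CPM. In this gene SHR-Water replicate 1, at 4.87 CPM, stood below the other SHRs and near the highest WKY rat, at 3.64 CPM.

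**Figure D3:**
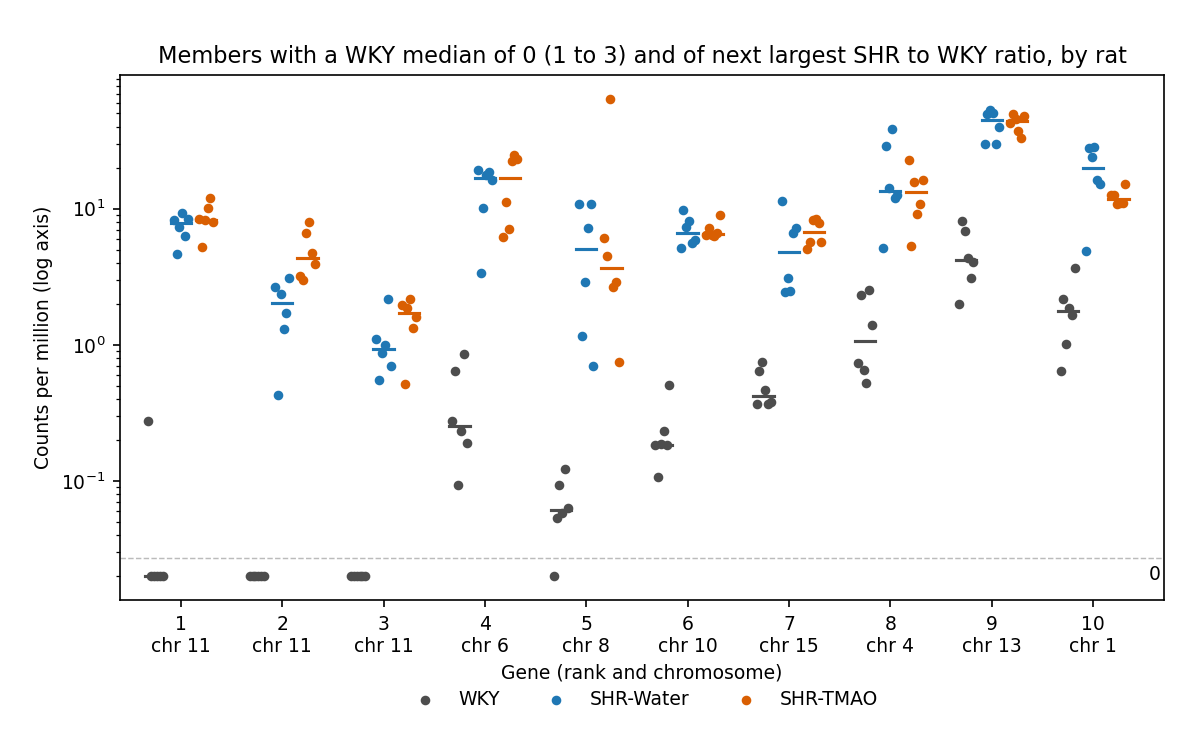
CPM (vertical log axis, with values of 0 drawn under the dashed line) of the 3 members with a WKY median of 0 and the 7 of next largest ratio of SHR to WKY medians, marked by chromosome. Points are rats and short lines group medians. The first 3 genes are the neighbours on chromosome 11, where WKY has 0 counts except for 0.274 CPM in 1 rat, and the fifth, on chromosome 8, has 1 SHR-TMAO rat at 64.0 CPM.

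The 24 members not given here gene by gene had means of 1.38 to 77 CPM in the SHRs, against 0.412 to 31.0 CPM in WKY. Their ratios of medians lay between 2.23 and 6.33.

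In the fit across genes, 50 of the 52 members passed the filter on low counts between SHR-Water and WKY, and 51 between SHR-TMAO and WKY. The 2 without counts in WKY were the 2 not tested in the first of these comparisons, and 1 of them was not tested in the second. Over the 50 members with counts in WKY, the median log2 fold change was 1.89 in SHR-Water (0.88 to 7.40) and 1.94 in SHR-TMAO (1.07 to 7.71). With the 2 silent genes set at their bounds, the medians were 1.93 and 2.004. The rule used both contrasts, so no test of the members is given for them.

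The members were spread over the genome. They lay on 16 chromosomes, 25 on the + strand. Chromosome 8 held 8 members, 15.4% of the list, and 5.76% of the eligible genes. Chromosome 1, with the most eligible genes (13.4%), held 2 members (3.85%), and chromosomes 16 to 19 held none. The 8 genes on chromosome 8 did not lie together. They began between chr8:13871213 and chr8:132032944, and none was part of a run. Their ratios ran from 2.23 to 60.2.

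Besides the run of 3 on chromosome 11, 1 pair of members began within 1 Mb of each other, between chr5:167288223 and chr5:168123395. Within 500 kb of the members, 469 neighbours with a mean of at least 1 CPM over the 18 rats were counted. A gene near more than 1 member counted once for each. Of these, 9 also had every SHR above every WKY rat, and 3 had every SHR below. The 9 lay around only 4 members. For the gene at chromosome 1, 252.98 Mb there were 2, and the rest belonged to the run of 3 on chromosome 11. In that run the same genes were counted repeatedly, so the 9 are not 9 separate genes. For 45 of 52 members no expressed neighbour was separated in either direction. The most abundant member, at chr4:14001761-14249749, was among the other 7, with 1 of 3 expressed neighbours lower in every SHR than in every WKY rat.

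**Figure D4:**
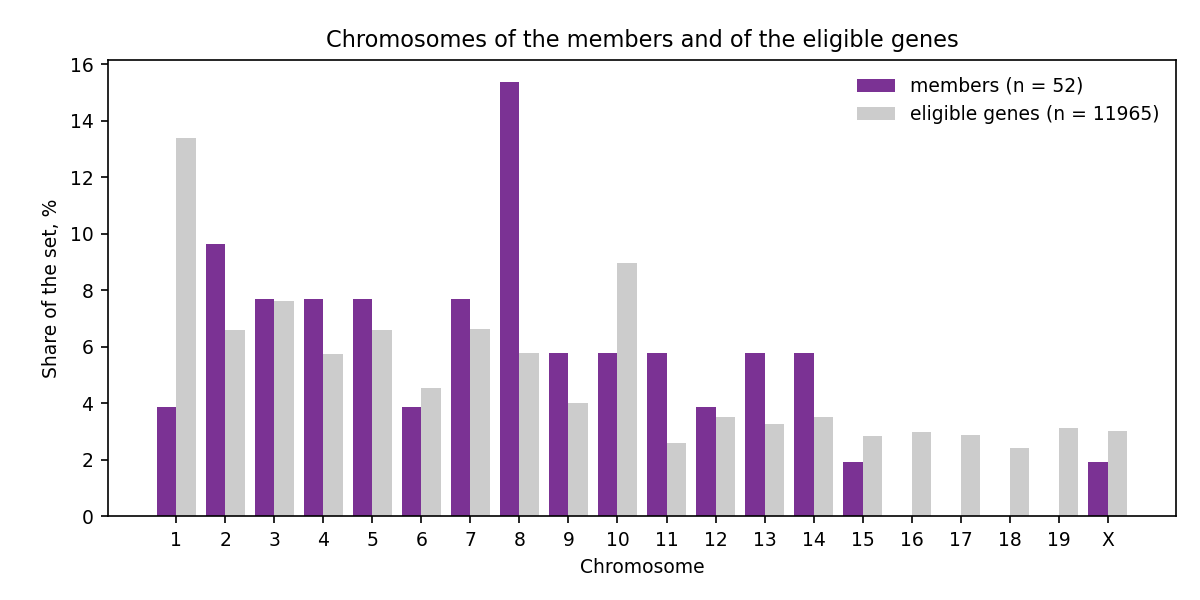
Share of the 52 members and of the 11965 eligible genes on each chromosome (vertical axis, percent, linear from 0). Chromosome 8 holds 15.4% of the members and 5.76% of the eligible genes, and chromosomes 16 to 19 hold no member.

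The structure of the members is given beside that of the eligible genes, with no test. Their exons summed to a median of 3036 bases, against 2353 among the eligible genes, in a median of 6.5 and 9 exon blocks. A single exon block made up 3.85% of members and 4.79% of eligible genes. In the SHRs the median member was at 11.4 CPM and the median eligible gene at 16.4 CPM. The median coefficient of variation between WKY rats was 34.7% for the members and 26.4% for the eligible genes. Between SHR-Water rats it was 25.6% and 27.0%, and between SHR-TMAO rats 24.97% and 22.1%. In all, 10 members overlapped another gene, 5 of them with exons on the same strand and 6 with exons on the other strand. Among the 6 were the genes at chromosome 1, 252.98 Mb, chromosome 6, 56.85 Mb, chromosome 8, 13.87 Mb and chromosome 11, 33.78 Mb.

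Within the groups the members did not vary as 1 block. Over the 1326 pairs of members, the median Pearson's r of their deviations from the group means was 0.0805 across the 18 rats, and 10.78% of pairs were above 0.5. Over eligible genes the median was 0.111, with 18.8% above 0.5. The rats are the same for every pair, and library depth and composition are shared. The closest pair was chr7:58164198-58219790 and chr3:21373213-21381013, on different chromosomes, with an r of 0.904.

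TMAO was tested as the difference between SHR-TMAO and SHR-Water. None of the 52 members met an adjusted p under 0.05 with a log2 fold change of 1 or more in size (edgeR's quasi-likelihood test, Benjamini-Hochberg adjustment over 12852 genes), and 0% of all genes tested did. The lowest adjusted p among the members was 0.0882. At an adjusted p under 0.1 with no limit on the fold change, 3 members passed, 5.77% of the list, beside 5.91% of all genes. At an unadjusted p under 0.05, 5 members were higher in SHR-TMAO and 3 were lower, and 12.6% and 12.4% of all genes were. No member had all SHR-TMAO rats on 1 side of all SHR-Water rats, as 0.296% of all genes did upwards and 0.412% downwards. In each of these edgeR counts the share of the members was at or below that of all genes. The rule left out genes in which either SHR group reached down to WKY. What this did to the shares was not tested. Without SHR-Water replicate 1, edgeR called 2 members at the first of these limits and 5.26% of 13025 genes. Without SHR-TMAO replicate 1 it called 1 member and 3.40% of 13017 genes.

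The size of the TMAO difference was small for most members. In 44 of 52 the log2 fold change was within 0.5 of 0, and in 3 it was beyond 1 in either direction. The median was 0.18 (range -1.17 to 1.41), beside -0.01 over all genes tested. It was positive in 37 members and negative in 15, that is, positive in 71.2% of members and 49.2% of all genes. Among the 13 most abundant members it was positive in 12, with a median of 0.27. The share among other genes of that level was not computed. Leaving out 1 rat could reverse the sign at chromosome 1, 101.69 Mb (-0.18 to 0.20) and at chromosome 7, 107.73 Mb (-0.04 to 0.20). The same held at chromosome 7, 123.04 Mb (-0.01 to 0.14), and the other abundant members kept their sign.

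The balance of positive and negative differences over the members moved with gene length. Spearman's rho between the log2 fold change and summed exon length was -0.53 over the members and -0.42 over all genes tested, across genes that are not independent replicates. Of the 21 members with exons under 2335 bases, 20 were higher in SHR-TMAO, with a median of 0.29. Of the 31 longer members 17 were, with a median of 0.07. Among all genes 66.4% of the shorter and 31.9% of the longer were higher in SHR-TMAO. The libraries themselves differed in this respect: rho of exon length with how far each gene lay from its 18-rat mean was between -0.24 and 0.48 in SHR-Water and between -0.38 and 0.12 in SHR-TMAO. The part of this trend in the members' differences was not tested.

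**Figure D5:**
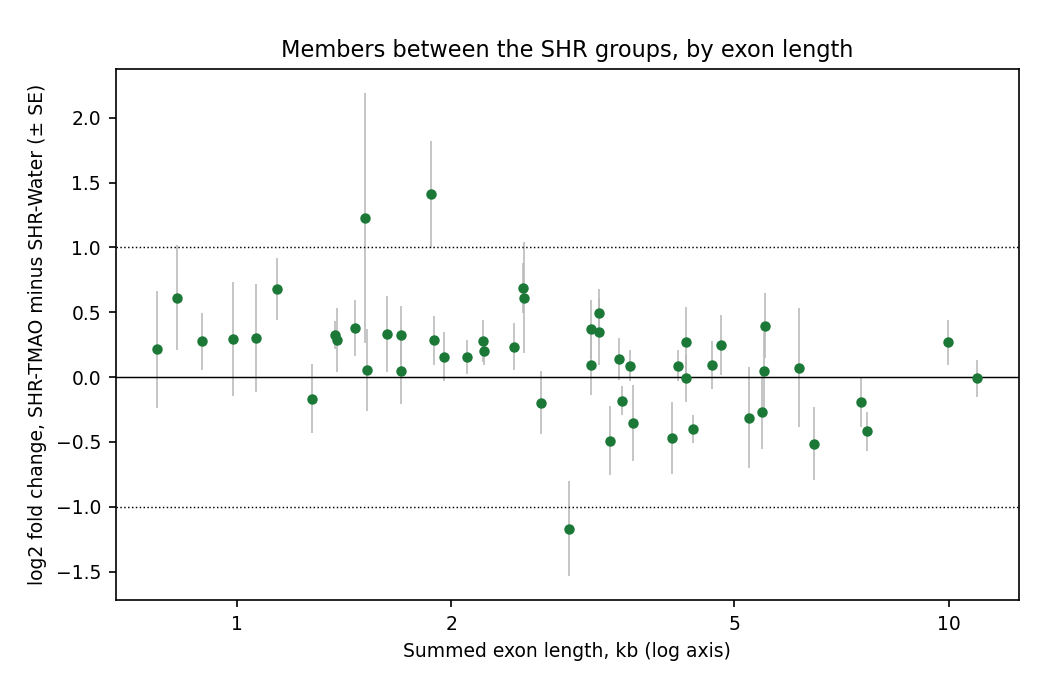
log2 fold change of the 52 members between SHR-TMAO and SHR-Water (vertical axis, error bars SE, dotted lines at 1 and -1) against summed exon length (kb, log axis). Of the 21 members under 2335 bases 20 lie above 0, and of the 31 longer ones 17 do. The 3 beyond the dotted lines are at 1.41, 1.23 and -1.17.

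The members with the smallest p toward SHR-TMAO began with the gene at chr13:80837420-80862963 (- strand). It measured 18.2, 20.5 and 28.5 CPM in SHR-Water and 20.6, 32.4 and 44.1 CPM in SHR-TMAO (lowest, median and highest), so the groups overlapped. WKY lay between 5.68 and 15.4 CPM. The log2 fold change was 0.68 ± 0.19 (SE, edgeR adjusted p = 0.091, DESeq2 adjusted p = 0.0247).

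The second was the silent gene of chromosome 11 at 33.81 Mb, whose values are given above. SHR-TMAO was higher by 1.41 ± 0.41 on the log2 scale (edgeR adjusted p = 0.0931). A single SHR-Water rat, at 3.11 CPM, was above the lowest SHR-TMAO rat, at 2.98 CPM. DESeq2 gave an adjusted p of 0.0175 for this gene.

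The gene at chr3:150091630-150108898 (- strand) had 24.8, 33.6 and 39.9 CPM in SHR-Water and 32.4, 38.0 and 45.1 CPM in SHR-TMAO, and overlapped. Its log2 fold change was 0.32 ± 0.11 (edgeR adjusted p = 0.117). The abundant genes at chromosome 14, 15.25 Mb (0.68 ± 0.24, edgeR adjusted p = 0.124) and chromosome 2, 143.66 Mb (0.50 ± 0.18, edgeR adjusted p = 0.127) came next.

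Toward lower values in SHR-TMAO the smallest p belonged to the gene at chr3:176818437-176856531 (+ strand). It had 34.0, 45.8 and 57.0 CPM in SHR-Water and 27.8, 30.3 and 41.4 CPM in SHR-TMAO, against 6.80 to 17.5 CPM in WKY. The log2 fold change was -0.40 ± 0.11 (edgeR adjusted p = 0.0882, DESeq2 adjusted p = 0.0165).

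The gene at chr13:50802053-50812305 (+ strand) had the most negative difference of the list. It measured 1.68, 6.88 and 15.8 CPM in SHR-Water and 1.75, 2.87 and 3.68 CPM in SHR-TMAO, with WKY between 0.278 and 1.40 CPM. SHR-Water was widely spread here, and its lowest rat, replicate 1, was below all SHR-TMAO rats. The log2 fold change was -1.17 ± 0.37 (edgeR adjusted p = 0.101, DESeq2 adjusted p = 0.0285).

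The genes at chr8:13871213-13909188 (- strand, -0.42 ± 0.15, edgeR adjusted p = 0.126), chromosome 1, 252.98 Mb (-0.49 ± 0.27, adjusted p = 0.264) and chr5:168086998-168123395 (- strand, -0.51 ± 0.28, adjusted p = 0.267) followed. The first of them has exons that overlap exons of 2 other genes on the same strand. Its median was 16.5 CPM in SHR-Water and 10.5 CPM in SHR-TMAO, against 5.07 CPM in WKY. The last had 32.5 and 19.5 CPM against 7.71 CPM.

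Other methods made calls in SHR-TMAO against SHR-Water at the same limits. DESeq2 called 2 members, those at chromosome 11, 33.81 Mb and chromosome 13, 50.80 Mb, beside 2.96% of 13696 genes. limma with voom and sample quality weights called 3, beside 8.46% of 12852 genes. The third was the gene at chromosome 15, 62.52 Mb, with a log2 fold change of 1.103 and a limma adjusted p of 0.0192, where edgeR gave 0.30 ± 0.42. With no limit on the fold change, an adjusted p under 0.05 was met by 4 members in DESeq2, beside 8.62% of all genes, and by 13 in limma, beside 31.9%. The 10 members described above were those of smallest edgeR p within each direction, higher and lower taken separately. Of these 10, DESeq2 gave such a p to 4 and limma to 10. All methods used the same rats, so these counts are no independent support.

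In 3 members 1 SHR-TMAO rat was over 2.5 times the next. At chromosome 8, 54.93 Mb, replicate 3 was at 64.0 CPM and the other 5 SHR-TMAO rats at 3.36 ± 2.002 CPM, below the SHR-Water mean of 5.57 CPM. Leaving out each SHR in turn moved its log2 fold change between -0.71 and 1.63. At chr8:84945444-84968811, replicate 2 was at 15.8 CPM and the others at 2.35 to 6.28 CPM. At chr9:44839960-45292047, replicate 1 was at 12.4 CPM and the others at 3.44 to 4.66 CPM.

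The 24 members not given gene by gene had log2 fold changes between -0.47 and 0.61, with 17 higher and 7 lower in SHR-TMAO and a smallest edgeR adjusted p of 0.283. A p above the limit does not show that TMAO left a member unchanged. The median SE of the members' log2 fold changes in this comparison was 0.23. The p-values weigh the difference between the groups against the spread between rats within a group. Each rat was treated as independent, also where rats shared a cage.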

How the data were processed

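RNA of vWAT of 18 rats was sequenced from SMART libraries. Per the submitters' processing notes and the file header, the authors used cutadapt 2.5, HISAT2 2.1.0 and featureCounts 1.6.3 with reverse strand counting on exons of Ensembl's annotation of Rnor_6.0, and deposited whole-number counts per gene with the summed exon length of each gene in bases. Reads of both strains were counted on the same reference, and the effect of strain sequence differences was not tested. Reads that mapped to several places or to several genes were not counted. The kit's strand is not given in the sources used here.

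From the deposited counts, CPM was computed on all genes. Differential expression used edgeR 4.0.16 in R 4.3.3 (TMM, filterByExpr, quasi-likelihood test) on the 2 groups compared, with Benjamini-Hochberg adjustment over all genes tested. DESeq2 1.42.0 and limma 3.58.1 were alternatives, DESeq2 with its default filter. Descriptions used Python 3.11.15, numpy 2.4.6, pandas 2.3.3 and scipy 1.17.1. The fits were tested on simulated data. CPM of genes with few counts is the least precise.

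The members, lists and tests were chosen with earlier results of these data known. Genes named were the 10 of highest mean SHR CPM, the 10 of largest ratio (a WKY median of 0 counting as largest), the 5 of smallest p in each direction between the SHR groups and any called there, the 3 on each side of the ratio limit, and runs of 3 or more members with gaps of at most 1 Mb. The genes with a single high SHR-TMAO rat, the closest pair and the genes called by other methods were named after their values were seen. The main fits have no block for the replicate number, which the labels tie to no shared litter, cage or day. Gene lists, cell type markers and sequences were not analysed here, since the identifiers could not be joined to names. The other libraries named in the file header were not used here.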

Additional observations from a re-analysis of the deposited data

Results flagged for a closer look

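Among the 52 members and their sum, 15 of 157 groups of 6 rats held a rat that stood apart from the other 5 by Dixon's criterion at 95%, which flags about 1 in 20 groups by itself. In 14 of them the rat was high. The rate of 1 in 20 is for normally distributed values, and CPM was used here without a log. The rule left out genes in which an SHR was as low as WKY, which limits low values among the SHRs. It likewise left out genes in which a WKY rat was as high as an SHR, which limits high values in WKY. The part of the rule in the direction was not tested. SHR-TMAO replicate 1 was the rat that stood apart 4 times. It had 266 CPM at chromosome 1, 101.69 Mb (others 111 to 158 CPM) and 41.4 CPM at chromosome 3, 176.82 Mb (others 27.8 to 32.3 CPM). It also had 12.4 CPM at chromosome 9, 44.84 Mb (others 3.44 to 4.66 CPM) and 2.96 CPM at chromosome 10, 85.57 Mb (others 0.854 to 1.27 CPM). SHR-TMAO replicate 3 had 64.0 CPM at chromosome 8, 54.93 Mb (others 0.742 to 6.05 CPM) and 3.87 CPM at chromosome 2, 198.32 Mb (others 2.65 to 2.98 CPM). In the latter gene SHR-Water replicate 1 was low, with 1.97 CPM (others 3.30 to 3.82 CPM). SHR-TMAO replicate 2 had 15.8 CPM at chromosome 8, 84.95 Mb (others 2.35 to 6.28 CPM). SHR-TMAO replicate 6 had 7.26 CPM at chromosome 8, 58.27 Mb (others 3.76 to 4.89 CPM) and 9.01 CPM at chromosome 10, 82.23 Mb (others 6.28 to 7.19 CPM). At the last position WKY replicate 6 had 0.511 CPM (others 0.106 to 0.233 CPM). WKY replicate 2 had 11.04 CPM at chromosome 2, 119.20 Mb (others 5.002 to 6.64 CPM) and 48.6 CPM at chromosome 4, 25.69 Mb (others 26.1 to 30.4 CPM). SHR-Water replicate 5 had 2.16 CPM at chromosome 11, 33.89 Mb (others 0.550 to 1.101 CPM). WKY replicate 1 had 0.274 CPM, from 3 counts, at chromosome 11, 33.78 Mb, where the others had 0.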

How the results depend on the processing

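The number of members moved from 52 to 120 when WKY replicate 2, SHR-Water replicate 1, SHR-TMAO replicate 1 and SHR-TMAO replicate 3 were left out together, a choice made after seeing the data. By construction fewer rats have to separate, and all 52 were among the 120. Leaving out each rat in turn gave 51 to 71 members. Totals scaled by TMM or median-of-ratios factors gave 52 members each, with 48 and 47 of the 52, and totals without mitochondrial genes gave 67. A ratio of 1.5 gave 64 members, a ratio of 3 gave 35 and a floor of 5 CPM gave 41. The number of members called between SHR-TMAO and SHR-Water went from 0 to 2 with DESeq2, 3 with limma voom and 3 at an adjusted p under 0.1 without a fold limit. Leaving out a rat gave 0 to 2 calls: 2 without SHR-Water replicate 1 (the genes at chromosome 11, 33.81 Mb and chromosome 13, 50.80 Mb, with 685 calls over all genes) and 1 without SHR-TMAO replicate 1 (the former, with 442 calls over all genes). The cause was not tested. With a replicate block 0 members were called, and the median log2 fold changes were 0.15 between the SHR groups, 1.99 in SHR-Water and 2.03 in SHR-TMAO against WKY. Same-numbered rats deviated together (r over 0.1) in 5 of 6 pairs of SHR-Water and WKY (-0.26 to 0.52), where 6 of 12 rats correlated best with their own number. They did so in 1 of 6 pairs of SHR-TMAO and WKY (-0.21 to 0.25) and in 0 of 6 pairs of the SHR groups (-0.35 to 0.03). The numbers were taken to pair the rats only if all pairs of a comparison were over 0.1, and none met this. Whether SHR-Water and WKY rats of the same number were processed together was not tested. The median between the SHR groups kept its sign under the alternatives run. The sign of the 2 medians against WKY was set by the rule. With few counts in WKY, ratios of the silent members are limited by depth.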
